A study of Mus musculus with 6 samples.

Results

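Genes that carry fatty acids into the mitochondrion, oxidise them and set the choice of fuel were followed in heart cells that express a mutant or a wild-type histone H3.3. The set was a list of 37 gene symbols looked up in the table of read counts. A row was found for 36 of them among the 15159 genes of the table, and Plin5, a lipid droplet protein of oxidative tissues, had none. All 36 passed the filter on low counts, with no fewer than 405 reads for any of them in any library, and they are the genes described here. The cells came from mouse hearts at embryonic day 18.5 (C57BL/6 x 129S4/SvJae) and were cultured for 4 days on PDMS, a silicone gel, at a stiffness of 13 kPa. The 3 H3K9M libraries are from cells with an inducible H3.3 whose lysine 9 is replaced by methionine, and the 3 H3WT libraries from cells with inducible wild-type H3.3. Both groups received doxycycline at 2 µg/ml on the first days of culture to switch the transgene on, so an H3.3 transgene was induced in the controls as well. Which promoter drives the transgene and how many animals stand behind the libraries is not given here. The p-values therefore cover the variation among these 6 libraries, which may be technical.

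Long-chain fatty acids enter the heart cell, are joined to coenzyme A and cross into the mitochondrion as carnitine esters. There each turn of beta-oxidation shortens the chain through a dehydrogenase, a hydratase, a second dehydrogenase and a thiolase, and passes electrons to the respiratory chain. The fetal heart relies largely on glycolysis and lactate and turns to fatty acids after birth, a switch in which the nuclear receptors of the PPAR and ERR families and their PGC-1 coactivators take part.

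The libraries held 55550379 to 67994773 counts, and levels are given as CPM, the usual RNA-seq unit of counts relative to library size, here after TMM scaling. The 36 genes together took 0.413% to 0.467% of a library. Cardiomyocyte markers were abundant in every library: the 12 markers, with Myh6 and Tnnt2 at the head, summed to between 32370 and 36183 CPM in H3K9M and between 30333 and 37543 CPM in H3WT. The cultures were mixed, since 10 fibroblast markers summed to 19724 to 28507 CPM in H3K9M and 24444 to 31291 CPM in H3WT. Of these fibroblast markers 7 had a negative fold change and 3 a positive one, with a median log2 fold change of -0.52. The part of the fibroblasts in the levels of the 36 genes was not tested. The 10 endothelial markers summed to 476 to 555 CPM in H3K9M and 529 to 654 CPM in H3WT. The 10 macrophage and leukocyte markers, a cell type in which Cd36 and Lpl are also known to be expressed, summed to 212 to 270.2 CPM in H3K9M and 141 to 512 CPM in H3WT. Of 8 adipocyte markers only Cidec and Pparg had a row, and the list stayed under 2 CPM in every library. In such bulk samples fewer cells of a type and less RNA per cell cannot be told apart. The titles of replicate 2 of both groups lack the word for the soft substrate that the other 4 titles carry, and those of replicate 1 of both groups lack the tag D4, although the culture conditions given are the same for all 6.

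Setting H3K9M against H3WT asks whether these fuel genes differ when the mutant histone replaces the wild-type one as the induced transgene. Most fold changes were small: 1 of 36 genes passed an adjusted p of 0.05 in edgeR's quasi-likelihood test (two-sided, Benjamini-Hochberg over all 14758 genes tested), and that gene, Acaa2, was higher in H3K9M. Over all genes tested 1.99% passed, 0.935% higher and 1.05% lower, so 1 in 36 is close to the background. The median log2 fold change of the 36 genes was 0.041, beside -0.0024 for all tested genes, with 21 positive and 15 negative values (58.3% positive, beside 49.5% of all tested genes). The fold change was under 1.25-fold (a set bound) in either direction for 32 of the 36 genes (88.9%, beside 73.7% of all tested genes). The exceptions were Acaa2, Ckmt2 and Pdk4 on the higher side and Lpl on the lower.

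The intervals of these fold changes were narrow. For 31 of the 36 genes the 95% confidence interval lay wholly within 1.5-fold of no change, and for 18 within 1.25-fold, beside 58.7% and 26.7% of all tested genes. The median standard error was 0.090 on the log2 scale, against 0.133 over all tested genes, at a median level of 79.4 CPM against 20.9 CPM. The genes whose intervals reached beyond 1.5-fold were Cd36, Lpl, Acaa2, Pdk4 and Ckmt2, so that a change of that size cannot be set aside for these genes. The H3K9M and H3WT libraries did not overlap for 14 of the 36 genes, 8 higher and 6 lower in H3K9M. Over all tested genes 22.6% did not overlap, 11.3% in each direction. Counting Acaa2, 6 of the 36 genes (16.7%) had an unadjusted p under 0.05, 3 in each direction, beside 16.4% of all tested genes.

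**Figure D1:**
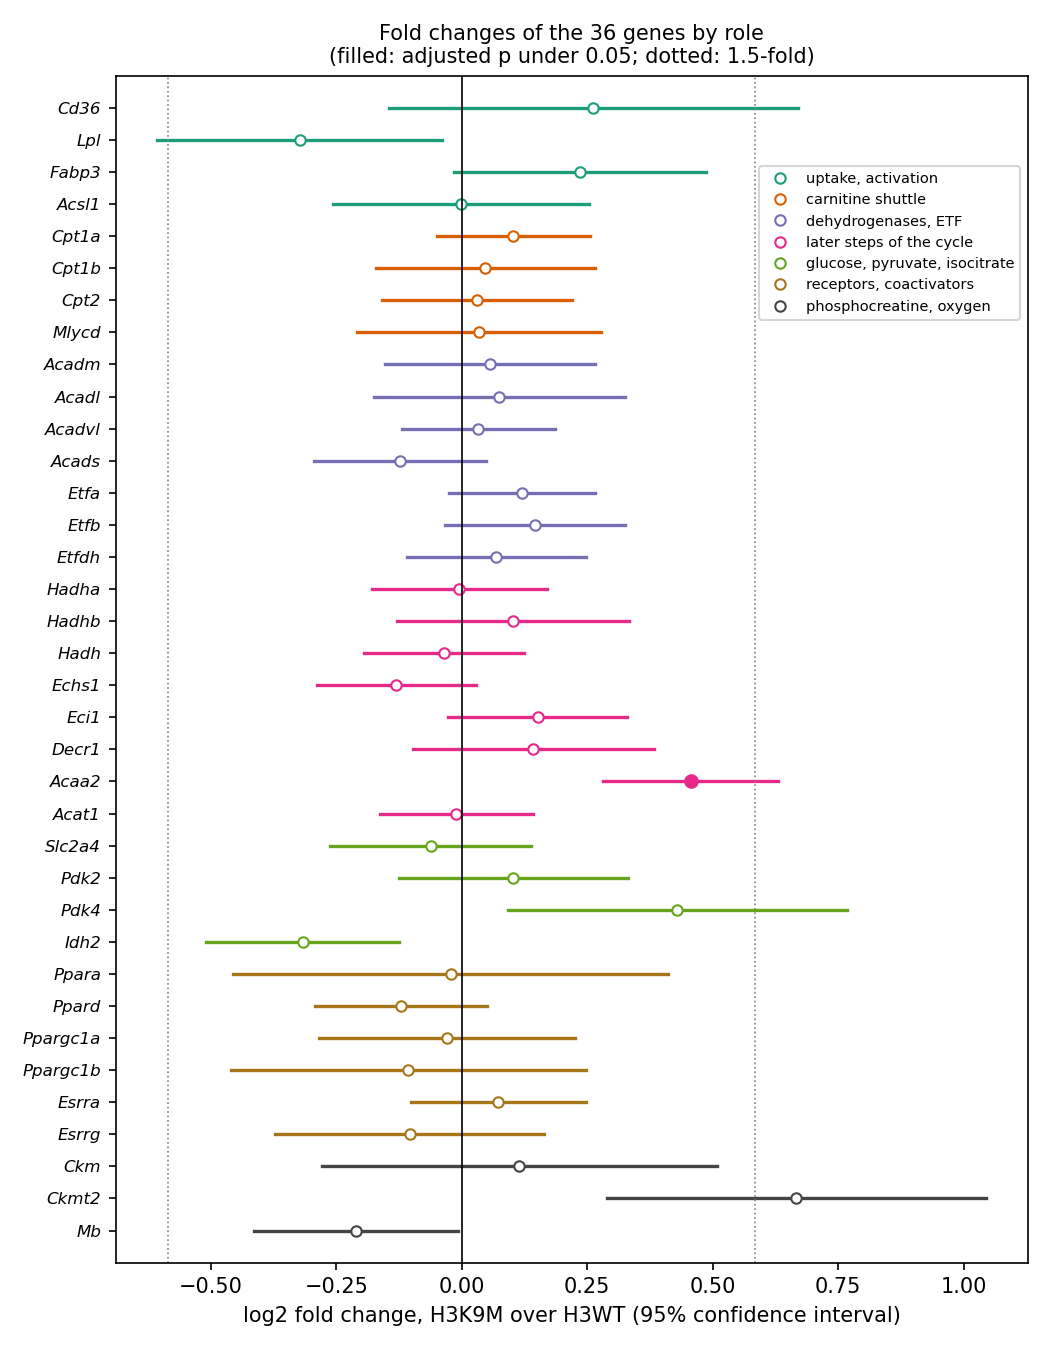
Log2 fold change of each of the 36 genes (H3K9M over H3WT, horizontal axis) with its 95% confidence interval, grouped by role down the page, with dotted lines at 1.5-fold. The filled point, Acaa2, is the gene past an adjusted p of 0.05, and 31 intervals lie between the dotted lines.

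Acaa2, the mitochondrial 3-ketoacyl-CoA thiolase that cuts acetyl-CoA from the chain in the last step of each turn, was the gene that rose. It stood at 89.2, 90.6 and 83.2 CPM in H3K9M replicates 1 to 3, against 62.7, 60.4 and 68.5 CPM in H3WT replicates 1 to 3. Every H3K9M library was above every H3WT library, and the spread within each group was small (87.6 ± 3.93 CPM in H3K9M and 63.9 ± 4.17 CPM in H3WT, SD, n = 3 each). The log2 fold change was 0.46 ± 0.08 (SE), a rise of 1.37-fold with a 95% interval of 1.22 to 1.55 (edgeR adjusted p = 0.0291). The gene lies on chromosome 18 at 74779197 to 74806208 (plus strand, build GRCm38, GENCODE M21), and no other annotated gene shares its exons. The call depended on single libraries: without H3K9M replicate 1, 2 or 3 the edgeR adjusted p was 0.0873, 0.115 and 0.0686, and without H3WT replicate 1 or 2 it was 0.0647 and 0.133, while it was 0.0219 without H3WT replicate 3. Without replicate 1 of both groups it was 0.0724, and without replicate 2 of both groups 0.402, a setting at which edgeR called 0 genes of the whole table and 1378 had an unadjusted p under 0.05. The size of the difference stayed between 0.39 and 0.51 on the log2 scale in all 17 alternatives. In the authors' deposited table, made with DESeq2, the log2 fold change was 0.45 with an adjusted p of 0.00536.

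Acat1, a thiolase that acts on acetoacetyl-CoA, stood at 88.6 to 96.4 CPM in H3K9M, against 90.8 to 95.8 CPM in H3WT. Its interval of 0.893 to 1.10-fold ends below that of Acaa2. The level of Acaa2 was also set against the cardiomyocyte markers, a ratio chosen after the values were seen. Per 1000 CPM of the 12 markers, Acaa2 stood at 2.46, 2.80 and 2.33 CPM in H3K9M, against 1.97, 1.99 and 1.82 CPM in H3WT, again without overlap.

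The other enzymes of the cycle had fold changes near 1. Hadha and Hadhb are the subunits of the trifunctional protein that handles long chains, and Hadhb is its thiolase. They lie head to head on chromosome 5, where their spans are 30118304 to 30155162 and 30155248 to 30184593 (GRCm38). Hadha stood at 255 to 276 CPM in H3K9M, against 256 to 284 CPM in H3WT, and its log2 fold change was -0.01 ± 0.08 (edgeR adjusted p = 0.983). Hadhb stood at 76.4 to 96.4 CPM in H3K9M, against 77.3 to 89.1 CPM in H3WT, with 0.10 ± 0.10. Both overlapped between the groups. Hadh, the short-chain 3-hydroxyacyl-CoA dehydrogenase, had a log2 fold change of -0.04 ± 0.07 and overlapped as well. Echs1, the short-chain enoyl-CoA hydratase, was lower in every H3K9M library (58.1 to 60.7 CPM, against 62.5 to 67.7 CPM in H3WT), without passing the test (-0.13 ± 0.07, edgeR adjusted p = 0.403).

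Eci1 and Decr1 prepare the double bonds of unsaturated fatty acids for the cycle, as isomerase and as 2,4-dienoyl-CoA reductase. Eci1 stood at 45.4, 50.8 and 50.2 CPM in H3K9M, against 44.1, 43.3 and 44.4 CPM in H3WT. The groups did not overlap, but the lowest H3K9M library lay only about 1 CPM above the highest H3WT library (log2 fold change 0.15 ± 0.08, edgeR adjusted p = 0.389). Decr1 overlapped between the groups, at 50.4 to 55.4 CPM in H3K9M and 41.4 to 54.1 CPM in H3WT.

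The acyl-CoA dehydrogenases, which open each turn and differ in the chain length they take, did not separate the groups, apart from a small non-overlap of Acads. Acadl, for long chains, stood at 241, 200.1 and 204 CPM in H3K9M, against 191, 189 and 233 CPM in H3WT (log2 fold change 0.07 ± 0.11, edgeR adjusted p = 0.796). The high libraries were H3K9M replicate 1 and H3WT replicate 3, so the groups overlapped, and the sign turned without H3K9M replicate 1 (-0.015) or without replicate 1 of both groups (-0.060). Acadm (medium chains, 0.06 ± 0.09) and Acadvl (very long chains, 0.03 ± 0.07) overlapped too. Acads, for short chains, was lower in all 3 H3K9M libraries (49.6 to 54.5 CPM, against 54.7 to 57.6 CPM in H3WT; -0.12 ± 0.07, edgeR adjusted p = 0.468). Of the exon length of Acadvl 42.9% is shared with Dvl2 on the opposite strand, and the strand setting of the counting is not given, so its level is uncertain.

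Electrons from these dehydrogenases pass through the electron transfer flavoprotein, whose subunits are Etfa and Etfb, to the ubiquinone oxidoreductase Etfdh. Etfb stood at 94.8, 104 and 101 CPM in H3K9M, against 94.5, 82.9 and 93.8 CPM in H3WT (log2 fold change 0.15 ± 0.08, edgeR adjusted p = 0.410). Etfa stood at 103 to 108 CPM in H3K9M, against 94.9 to 100.1 CPM in H3WT (0.12 ± 0.06, edgeR adjusted p = 0.401). Neither subunit overlapped between the groups, although for Etfb the nearest libraries differed by less than 1 CPM, and Etfdh overlapped (0.07 ± 0.08). Of the exon length of Etfb 58.2% is shared with the gene model Gm45233 on the same strand, which has no row in the table.

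Entry into the mitochondrion runs through the carnitine shuttle, with Cpt1a (the liver form) and Cpt1b (the muscle form) at the outer membrane and Cpt2 at the inner. Cpt1a stood at 76.2, 75.3 and 80.4 CPM in H3K9M, against 71.8, 70.0 and 74.2 CPM in H3WT (log2 fold change 0.10 ± 0.07, edgeR adjusted p = 0.499). Cpt1b stood at 94.1, 84.6 and 76.5 CPM in H3K9M, against 81.2, 76.6 and 89.2 CPM in H3WT (0.05 ± 0.10, edgeR adjusted p = 0.857). The groups were apart by about 1 CPM for Cpt1a and overlapped for Cpt1b, whose sign turned without H3K9M replicate 1 (-0.033), H3WT replicate 2 (-0.0015) or replicate 1 of both groups (-0.042). Cpt2 (0.03 ± 0.08) and Mlycd, which removes malonyl-CoA, the inhibitor of Cpt1, (0.03 ± 0.11) overlapped as well. Of the exon length of Cpt1b 81.4% is shared with the read-through model Gm44502, which has no row.

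Cpt1b was the leading Cpt1 form in both groups. Per kilobase of transcript, Cpt1b reached 29.4 ± 3.03 CPM in H3K9M and 28.4 ± 2.20 CPM in H3WT, and Cpt1a 17.9 ± 0.637 CPM in H3K9M and 16.7 ± 0.483 CPM in H3WT (SD, n = 3 each). Of the summed level of Cpt1a, Cpt1b and Cpt1c, the neural form, Cpt1b made up 51.3% ± 2.78 in H3K9M and 49.7% ± 3.08 in H3WT, and Cpt1a 31.4% ± 2.51 in H3K9M and 29.2% ± 0.489 in H3WT. The order of the levels per kilobase, Cpt1b over Cpt1a over Cpt1c, held in each of the 6 libraries.

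Uptake and activation precede the shuttle. Lpl, the lipoprotein lipase that frees fatty acids from circulating triglycerides, stood at 441, 376 and 465 CPM in H3K9M, against 625, 477 and 500.1 CPM in H3WT. All H3K9M libraries were below all H3WT libraries, and H3WT replicate 1 was the highest (log2 fold change -0.32 ± 0.12, 0.800-fold with a 95% interval of 0.657 to 0.974, edgeR adjusted p = 0.248). The macrophage markers were also highest in H3WT replicate 1, at 512 CPM, against 212 to 270.2 CPM in H3K9M and 141 and 273 CPM in the other H3WT libraries, and the part of these cells in the level of Lpl was not tested. Of the 10 endothelial markers 8 had a negative fold change, 6 with an unadjusted p under 0.05, and the median log2 fold change was -0.55. The other 2 were positive, and 0 of the 10 passed an adjusted p of 0.05. Summed over all 10, the groups overlapped, at 476 to 555 CPM in H3K9M and 529 to 654 CPM in H3WT. Eng, with a log2 fold change of 0.02, gave most of this sum. A sum without Eng was formed after the values were seen. The other 9 then came to 137, 211 and 166 CPM in H3K9M, against 228, 238 and 309.6 CPM in H3WT. Only this second sum did not overlap between the groups. The part of the endothelial cells in the level of Lpl was not tested either.

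Fabp3, the fatty acid binding protein of heart muscle, stood at 274, 229.6 and 226 CPM in H3K9M, against 217, 181 and 222 CPM in H3WT (log2 fold change 0.24 ± 0.11, edgeR adjusted p = 0.338). Its groups did not overlap, with H3K9M replicate 1 highest and H3WT replicate 2 lowest. Cd36, the fatty acid translocase of the membrane, stood at 48.9, 33.3 and 47.2 CPM in H3K9M, against 42.8, 28.7 and 36.4 CPM in H3WT. Replicate 2 was the lowest library in both groups, the groups overlapped, and the interval of 0.904 to 1.59-fold was wide (0.26 ± 0.18, edgeR adjusted p = 0.522). Acsl1, the long-chain acyl-CoA synthetase, had a log2 fold change of -0.00 ± 0.11, with 60.7 to 74.1 CPM in H3K9M and 60.3 to 76.9 CPM in H3WT. Plin5 appears in the authors' deposited table alone, with a mean normalised count of 3.93 over all libraries and no adjusted p.

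Among the genes that set the choice of fuel, Idh2 and Pdk4 had the smallest p-values after Acaa2 and Ckmt2. Idh2, the mitochondrial isocitrate dehydrogenase that makes NADPH, stood at 193, 189 and 197 CPM in H3K9M, against 232, 223 and 266 CPM in H3WT. The H3K9M libraries were tightly grouped and all below the H3WT libraries, the log2 fold change was -0.32 ± 0.08 (0.803-fold, 95% interval 0.702 to 0.917), and the edgeR adjusted p was 0.105. Pdk4, the pyruvate dehydrogenase kinase that is induced by fasting and fatty acids and holds back glucose oxidation, stood at 21.3, 14.4 and 18.5 CPM in H3K9M, against 13.0, 13.1 and 14.1 CPM in H3WT. H3K9M replicate 2 lay just above the H3WT libraries and the other H3K9M libraries well above them (0.43 ± 0.15, 1.35-fold, 95% interval 1.07 to 1.70, edgeR adjusted p = 0.199).

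Pdk2, another of these kinases, overlapped between the groups (log2 fold change 0.10 ± 0.10). Per kilobase, Pdk2 made up 51.0% ± 2.87 of the 4 kinases in H3K9M and 52.1% ± 2.40 in H3WT, whereas Pdk4 made up 7.08% ± 0.969 in H3K9M and 5.79% ± 0.178 in H3WT. Pdk4 was the least expressed of the 4 per kilobase in each of the 6 libraries. Slc2a4, the insulin-responsive glucose transporter GLUT4, stood at 52.8, 47.6 and 51.8 CPM in H3K9M, against 55.0, 48.1 and 55.7 CPM in H3WT, and overlapped (-0.06 ± 0.09, edgeR adjusted p = 0.787). Its interval ran from 0.834 to 1.10-fold.

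The regulators of the programme had fold changes near 1. Ppara, the nuclear receptor that fatty acids activate, stood at 10.4, 7.47 and 8.18 CPM in H3K9M, against 10.6, 7.30 and 8.62 CPM in H3WT (log2 fold change -0.02 ± 0.19, edgeR adjusted p = 0.971). Ppargc1a, the coactivator PGC-1 alpha of mitochondrial genes, stood at 42.7, 39.1 and 39.8 CPM in H3K9M, against 41.5, 35.5 and 47.2 CPM in H3WT (-0.03 ± 0.11, edgeR adjusted p = 0.9298). Both overlapped between the groups. The sign turned for Ppara without H3K9M replicate 2 (0.07), H3K9M replicate 3 (0.02) or H3WT replicate 1 (0.12), and for Ppargc1a without H3WT replicate 3 (0.08).

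The other regulators gave the same picture, with 1 exception to the overlap. Ppargc1b (log2 fold change -0.11 ± 0.15), Esrra (0.07 ± 0.08) and Esrrg (-0.10 ± 0.12), a second coactivator and a pair of estrogen-related receptors, overlapped. Ppard, the PPAR form of broad expression, was lower in every H3K9M library (43.0 to 47.1 CPM, against 49.4 to 49.99 CPM in H3WT; -0.12 ± 0.07, edgeR adjusted p = 0.475). Per kilobase Ppard made up 81.3% ± 3.96 of the 3 PPAR genes in H3K9M and 83.5% ± 1.72 in H3WT, and Ppara 14.9% ± 2.69 in H3K9M and 14.3% ± 2.44 in H3WT. Among the 3 ERR genes Esrra made up 91.0% ± 1.17 in H3K9M and 89.6% ± 0.677 in H3WT.

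Ckmt2, Ckm and Mb serve the delivery of energy and oxygen in muscle. Ckmt2, the creatine kinase of muscle mitochondria, had the largest difference of the 36 genes, at 112, 98.7 and 139.5 CPM in H3K9M, against 89.4, 59.5 and 71.5 CPM in H3WT. The groups did not overlap, but the spread was wide in both (117 ± 20.9 CPM in H3K9M and 73.5 ± 15.04 CPM in H3WT, SD, n = 3 each). The log2 fold change was 0.67 ± 0.17, 1.59-fold with a 95% interval of 1.22 to 2.06, and the edgeR adjusted p was 0.0879, over the threshold. Without H3WT replicate 1 it was 0.0442 and without replicate 1 of both groups 0.0382, under the threshold. In the other fits with libraries left out, the edgeR adjusted p of Ckmt2 was over the threshold, up to 0.393. In the authors' deposited table Ckmt2 passed, with a log2 fold change of 0.70 and an adjusted p of 0.00196.

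Ckm, the cytosolic muscle form, stood at 197 to 282 CPM in H3K9M, against 193 to 285 CPM in H3WT, and overlapped (log2 fold change 0.11 ± 0.17, edgeR adjusted p = 0.799). Per kilobase Ckmt2 made up 22.1% ± 2.24 of the 4 creatine kinase genes in H3K9M and 16.6% ± 5.41 in H3WT, and the brain form Ckb, named here after its values were seen, 52.1% ± 5.17 in H3K9M and 55.8% ± 8.02 in H3WT. Mb, myoglobin, the oxygen store of muscle, stood at 798, 807 and 841 CPM in H3K9M, against 1035, 867 and 929 CPM in H3WT. All H3K9M libraries were below all H3WT libraries (-0.21 ± 0.09, 0.864-fold with a 95% interval of 0.750 to 0.995, edgeR adjusted p = 0.286). Of the exon length of Mb 31.9% is shared with Apol6 and an antisense model on the opposite strand, and smaller parts of Fabp3 (19.6%), Ckm (15.5%) and Ckmt2 (5.65%) face genes on the other strand, so reads of such partners cannot be told apart where counting ignored strand.

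**Figure D2:**
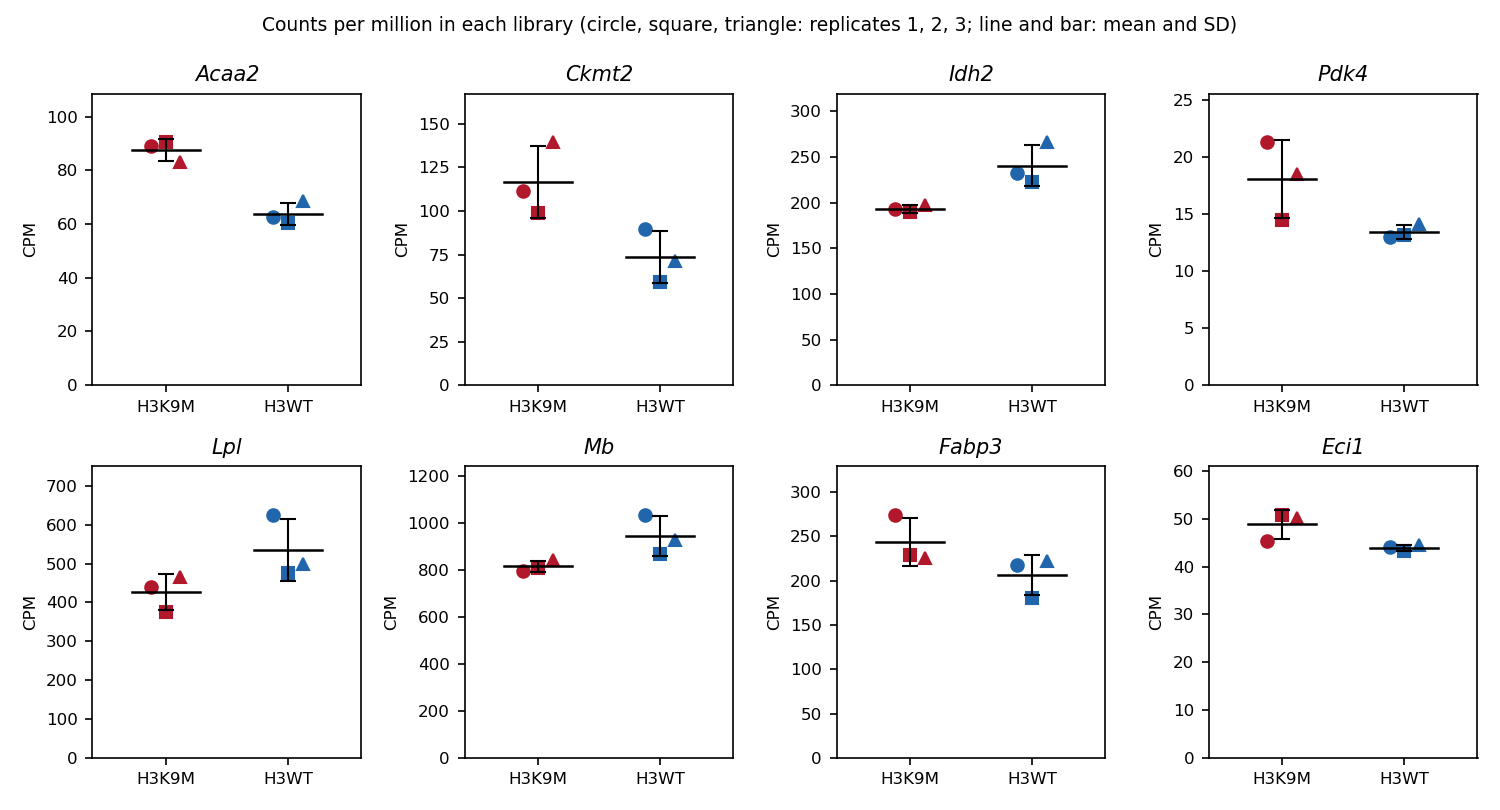
CPM (vertical axis from 0) in each library for the 8 genes with the smallest p, with H3K9M left and H3WT right, symbols for replicates 1 to 3, and the mean with SD. In all 8 the groups do not overlap, and Acaa2 is the gene that passed the test.

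The start regions of Ckmt2, Idh2 and Pdk4 are shown, chosen after their values were seen, because these genes had the smallest p-values after Acaa2 and did not overlap between the groups. The sequences are RefSeq's for build GRCm38.p6, from 250 bases before to 50 bases after the annotated start, on the strand of the gene (minus in each case), with CpG dinucleotides in capitals. They lie at chr13:91876836-91877135 for Ckmt2, chr7:80115301-80115600 for Idh2 and chr6:5496229-5496528 for Pdk4.
Ckmt2: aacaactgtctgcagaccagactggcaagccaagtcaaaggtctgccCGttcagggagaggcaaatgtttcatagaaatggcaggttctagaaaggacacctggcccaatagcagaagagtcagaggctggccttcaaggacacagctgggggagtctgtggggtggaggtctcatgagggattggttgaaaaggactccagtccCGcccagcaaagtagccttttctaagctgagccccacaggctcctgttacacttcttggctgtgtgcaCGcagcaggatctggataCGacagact
Idh2: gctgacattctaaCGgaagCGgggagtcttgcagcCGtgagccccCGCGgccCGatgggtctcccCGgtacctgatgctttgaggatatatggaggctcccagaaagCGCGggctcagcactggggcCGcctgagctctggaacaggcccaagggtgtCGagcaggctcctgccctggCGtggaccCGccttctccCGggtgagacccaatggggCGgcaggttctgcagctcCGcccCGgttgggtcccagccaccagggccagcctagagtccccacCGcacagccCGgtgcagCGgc
Pdk4: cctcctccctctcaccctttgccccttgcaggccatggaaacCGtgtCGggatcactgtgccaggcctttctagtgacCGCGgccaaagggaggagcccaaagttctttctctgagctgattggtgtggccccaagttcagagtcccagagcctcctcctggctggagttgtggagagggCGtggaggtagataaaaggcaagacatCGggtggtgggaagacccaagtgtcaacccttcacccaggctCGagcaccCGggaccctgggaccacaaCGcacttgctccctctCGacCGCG
The region of Ckmt2 holds 4 CpG dinucleotides at a GC content of 53.7%, that of Idh2 holds 20 at 68.3%, and that of Pdk4 holds 12 at 60.7%.

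The set of RefSeq start regions searched held none for Acaa2, the gene that passed the test, so the motif search does not cover it. That set held regions for 30 of the 37 genes, 38 regions in all. Their median GC content was 60.7% and their median number of CpG dinucleotides 17, beside 52.7% and 7 over all 32851 regions. The binding motif of PPAR with RXR, read as AGGTCA repeated in the same direction after 1 base, was in none of the 38 regions, on either strand, and in 0.04% of all regions. The motif of the ERR receptors, read as TCAAGGTCA, was in none of the 38 and in 0.423% of all. The hexamer AGGTCA, which both motifs contain, was in 9 regions (23.7%, beside 16.3% of all) of 7 genes, which were Cpt1a, Cd36, Acadm, Acadvl, Echs1, Mb and Plin5. The absence of these letters from so short a window says nothing about binding elsewhere.

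Levels were compared between genes after division by the length of the principal transcript. All annotated exons of a gene can be longer, as for Lpl (10478 bases, against 4115). Orders and shares per kilobase are therefore approximate. Mb was the highest, with 739 CPM per kilobase in H3K9M and 855 in H3WT, followed by Fabp3 with 296 in H3K9M and 251 in H3WT, and each of these stood apart from the next gene in all libraries. Idh2, Lpl, Acadl and Etfb came next, between 104 and 112 CPM per kilobase in H3K9M and between 101 and 138 in H3WT, and the ranges of neighbours in that order overlapped. Ppara was the lowest, at 2.55 CPM per kilobase in H3K9M and 2.59 in H3WT, and Pdk4 and Esrrg stood next to it. Among the acyl-CoA dehydrogenases Acadl held 39.9% ± 2.49 of the summed level in H3K9M and 39.0% ± 1.37 in H3WT. Acads held 9.78% ± 0.203 in H3K9M and 10.99% ± 0.610 in H3WT.

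**Figure D3:**
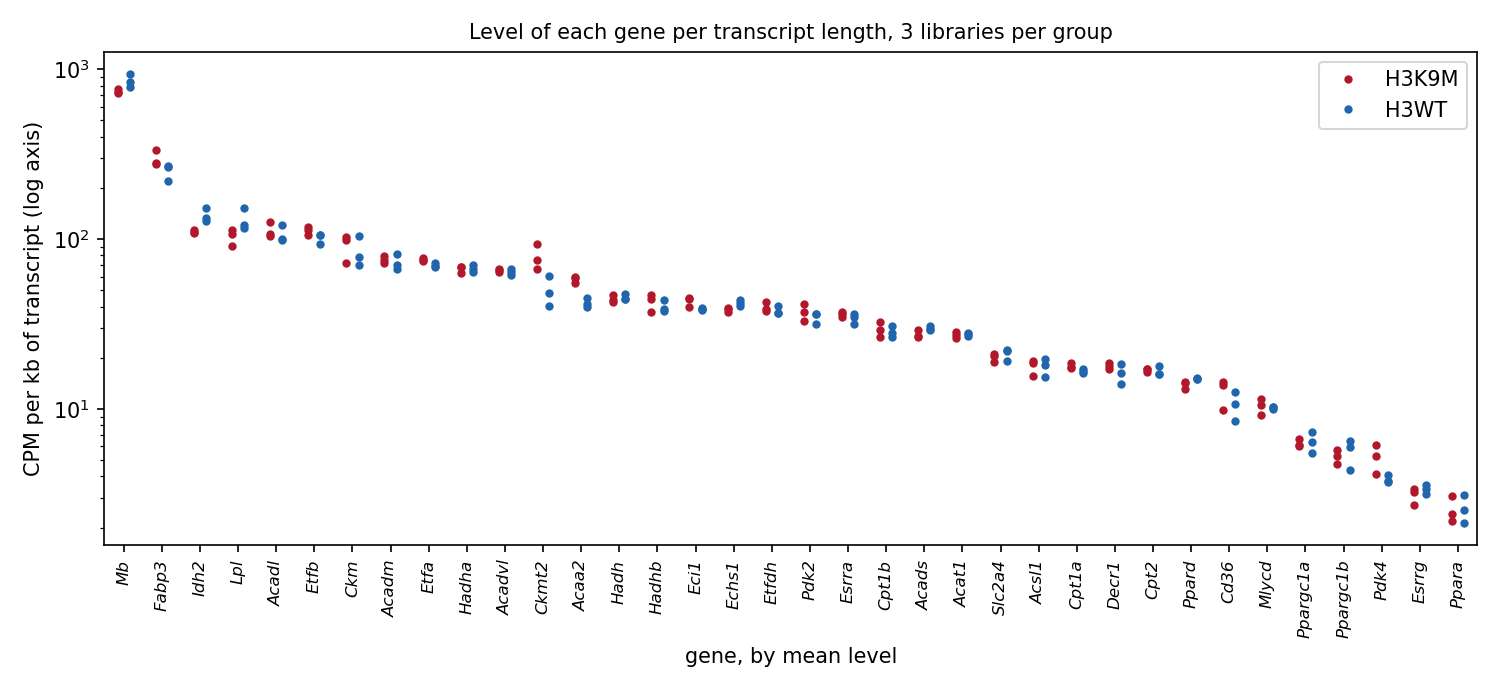
CPM per kilobase of transcript (vertical log axis) of the 36 genes in order of their mean level, with 3 points for H3K9M left of 3 points for H3WT. Mb and Fabp3 lead and Ppara is lowest, and for 22 of the 36 genes the points of the groups overlap.

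The libraries differed from each other along the programme as a whole. Within H3K9M, replicate 2 was the lowest library for 21 of the 36 genes and replicate 1 the highest for 18. Within H3WT, replicate 2 was the lowest for 27 genes and replicate 3 the highest for 23. Summed over the 36 genes, the libraries held 4505 (replicate 1), 4158 (replicate 2) and 4494 CPM (replicate 3) in H3K9M, and 4666, 4133 and 4642 CPM in the same order in H3WT. Of this sum the gene for myoglobin alone gave 798 to 841 CPM in H3K9M and 867 to 1035 CPM in H3WT. H3K9M replicate 1 also stood apart in the 10 immediate early genes, which summed to 1266 CPM there, against 389 and 411 CPM in the other H3K9M libraries and 352 to 469 CPM in H3WT, and their part in the levels of the 36 genes was not tested.

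The cardiomyocyte markers differed between libraries as well. They summed to 36183, 32370 and 35747 CPM in H3K9M replicates 1 to 3 and to 31879, 30333 and 37543 CPM in H3WT replicates 1 to 3, so that replicate 2 was lowest in both groups for the markers as for the fatty acid genes. The part of the cardiomyocyte share in the spread of the 36 genes was not tested. The median coefficient of variation of the 36 genes within a group was 5.35% in H3K9M and 7.42% in H3WT, against 10.3% and 11.1% over all tested genes. The most variable were Cd36, Ckm and Ckmt2, with 17.9% to 20.9% in both groups, joined by Pdk4 in H3K9M (19.1%, against 4.52% in H3WT) by Ppara (17.8% in H3K9M and 18.6% in H3WT) and by Ppargc1b in H3WT (19.5%, against 9.64% in H3K9M).

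**Figure D4:**
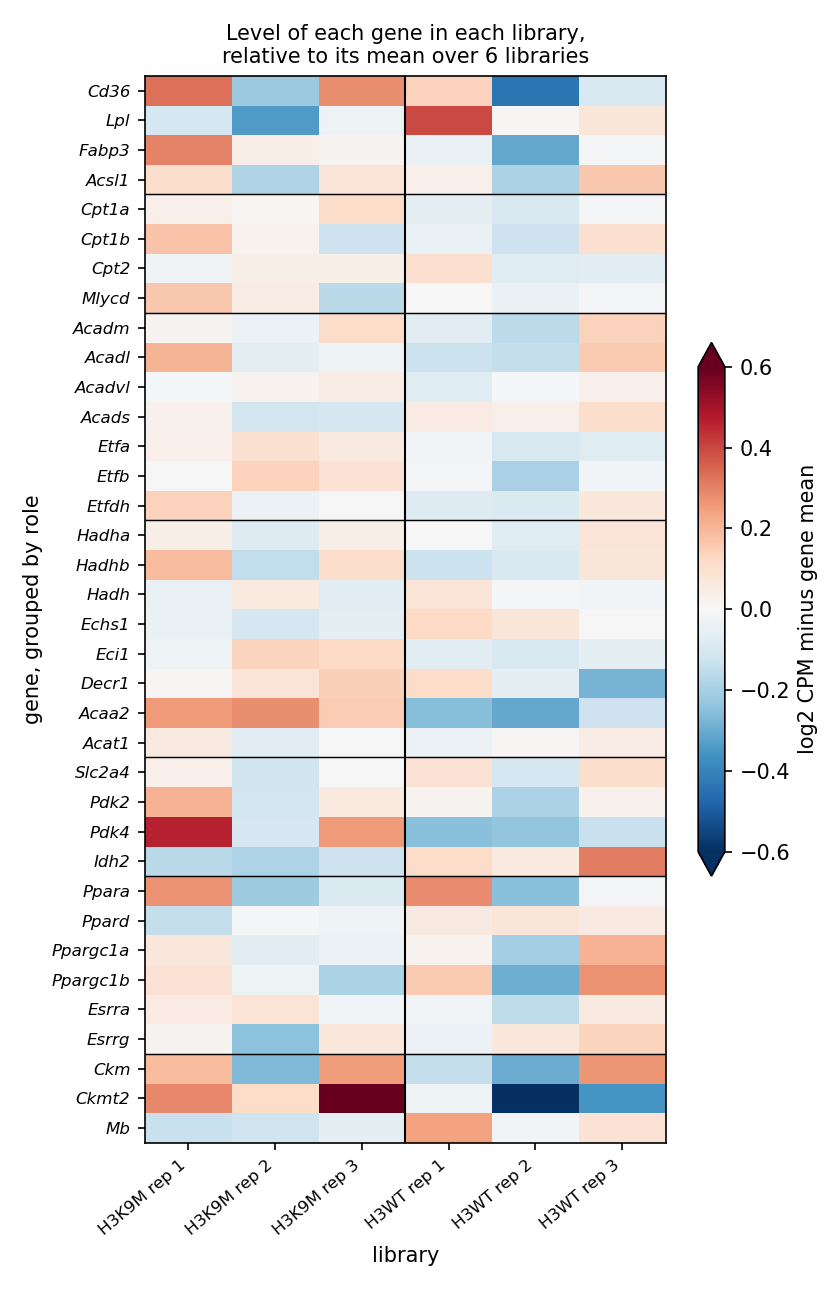
Log2 CPM of each of the 36 genes in each library minus the mean of that gene over the 6 libraries (colour), with rows grouped by role and H3K9M left of the line. Acaa2 and Ckmt2 are high in the H3K9M libraries, Idh2 low in them, and most other rows follow single libraries such as H3WT replicate 2.

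Set against the sum of the cardiomyocyte markers, again a ratio chosen after the values were seen, several genes kept their separation. Per 1000 CPM of the markers, Ckmt2 stood at 3.09, 3.05 and 3.90 CPM in H3K9M, against 2.80, 1.96 and 1.90 CPM in H3WT. Idh2 stood at 5.32, 5.85 and 5.52 CPM in H3K9M, against 7.28, 7.36 and 7.10 CPM in H3WT. Neither gene overlapped. Pdk4 came to 0.588, 0.446 and 0.517 CPM in H3K9M, against 0.407, 0.433 and 0.376 CPM in H3WT, still apart. Lpl did not overlap either and was lower in H3K9M. Slc2a4, which had overlapped in CPM, was apart on this scale alone. It came to 1.46, 1.47 and 1.45 CPM in H3K9M, against 1.73, 1.59 and 1.48 CPM in H3WT. Mb, Fabp3, Etfb, Eci1 and Cpt1a, which had not overlapped in CPM, overlapped on this scale.

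**Figure D5:**
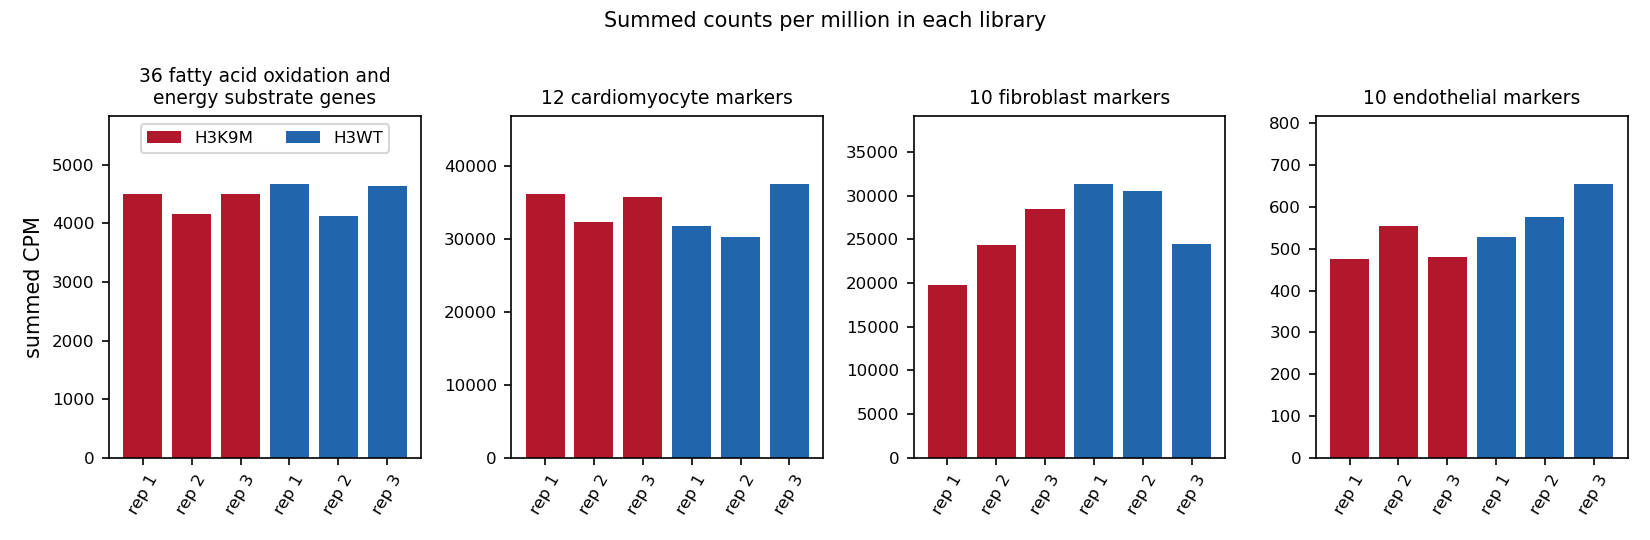
Summed CPM (vertical axis from 0) in each library of the 36 genes and of the cardiomyocyte, fibroblast and endothelial markers, with H3K9M bars left of H3WT bars. In both groups replicate 2 is the lowest library for the 36 genes and for the cardiomyocyte markers.

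The wider pathway was described by 97 further genes in 5 lists, of which 94 had a row and 93 were tested. Among these 93 genes 0 passed in edgeR's test, limma-voom called 0 and DESeq2 called 3 (3.23%, beside 7.18% of all genes). An unadjusted p under 0.05 was found for 11 (7 positive and 4 negative), which is 11.8%, beside 16.4% of all tested genes. The 3 called by DESeq2 were Slc27a1 and Acot13, positive, and Eci2, negative. Slc27a1, a fatty acid transport protein of the membrane, stood at 34.4, 32.5 and 29.1 CPM in H3K9M, against 24.6, 24.6 and 23.4 CPM in H3WT, without overlap (log2 fold change 0.40 ± 0.09, edgeR adjusted p = 0.0759). Acot13, a mitochondrial acyl-CoA thioesterase, stood at 56.3, 53.7 and 49.6 CPM in H3K9M, against 39.8, 44.5 and 42.3 CPM in H3WT (0.33 ± 0.08, edgeR adjusted p = 0.0914). Acot1, a cytosolic thioesterase with close paralogs among which reads may be split, had 2.37 to 4.71 CPM in H3K9M and 5.10 to 7.87 CPM in H3WT (-0.87 ± 0.29, edgeR adjusted p = 0.183). In the uptake and handling list, 22 genes in all, 11 fold changes were positive and 11 negative.

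Among 18 further genes of mitochondrial beta-oxidation and ketone use, 9 were positive and 9 negative. Eci2, a second enoyl-CoA isomerase, stood at 35.9, 38.6 and 37.3 CPM in H3K9M, against 47.3, 47.4 and 43.4 CPM in H3WT (log2 fold change -0.30 ± 0.08, edgeR adjusted p = 0.101). It lay below H3WT in every H3K9M library, whereas Eci1, described above, lay above it. Bdh1, a dehydrogenase of ketone bodies, had 2.53 to 4.71 CPM in H3K9M and 4.95 to 7.31 CPM in H3WT (-0.76 ± 0.26, edgeR adjusted p = 0.200), and Cpt1c overlapped (-0.29 ± 0.12).

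The peroxisomal list of 12 genes held 6 positive and 6 negative fold changes, with Abcd3 at -0.15 ± 0.07 and Acaa1b, under 1 CPM in every library, at 0.99 ± 0.55 on the log2 scale. In the list of pyruvate dehydrogenase and the TCA cycle 22 of 27 fold changes were positive (81.5%, beside 49.5% of all tested genes), with a median of 0.073 on the log2 scale, and no gene passed. The genes of this list summed to 5713, 5138 and 5523 CPM in H3K9M and to 4929, 4880 and 5547 CPM in H3WT, replicates 1 to 3. The 12 cardiomyocyte markers held 9 positive and 3 negative fold changes, with a median of 0.061 on the log2 scale and 0 past the test. Within both groups the libraries stood in the same order for the pyruvate dehydrogenase and TCA genes as for these summed markers. The part of the cardiomyocyte markers in the result was not tested. Pdk3 had 0.20 ± 0.08, Ogdh 0.25 ± 0.12 and Sdhc -0.12 ± 0.07. Of 14 further regulators 9 were positive, with Rxrb, a partner of the PPARs, at 0.18 ± 0.08, Esrrb at -0.52 ± 0.29 and Prkaa1, a catalytic subunit of AMPK, at 0.17 ± 0.10.

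All 37 genes appear in the authors' deposited table. At an adjusted p of 0.05 it calls 2 of the 36 with an adjusted p higher (Acaa2 and Ckmt2) and 1 lower (Idh2, log2 fold change -0.34, adjusted p 0.0287), beside 4.1% of its genes (1.8% higher and 2.3% lower). The sign in the authors' deposited table was that found here for 33 of 36 genes. DESeq2 run on the deposited counts called the same 3 genes, beside 7.18% of all genes with an adjusted p (3.35% higher and 3.84% lower). Limma-voom called Acaa2 alone, beside 1.5% of all genes (0.745% higher and 0.759% lower).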

How the data were processed

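Polyadenylated RNA of 6 samples was sequenced. Alignment and counting tools named in the submitters' processing notes are HISAT2 and featureCounts, with DESeq2 and the build mm10. Their versions, annotation and strand setting are not given here. The authors deposited raw read counts for 15159 genes, with no row total under 19. The authors also deposited a DESeq2 table of log2 fold changes, standard errors and Wald statistics (both taken as a score here; the Wald statistic was not used), and mean normalised counts as a signal. P-values and adjusted p-values were computed by the authors in that table. The mean of the deposited counts was 3.94 times that signal (median over genes), and which counts the authors' table was made from is not known here.

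Genes were filtered with filterByExpr (10 counts, 15 in total), scaled by TMM and tested with edgeR 4.0.16 in R 4.3.3, group as the only term, over 14758 genes. The standard error is the log2 fold change over the square root of F. For 1 gene alone, exact permutation over 3 and 3 libraries has a smallest p of 0.1. Levels per kilobase use the principal GENCODE M21 transcript. No library is a copy of another (chi-square per gene 27.2 to 121.5). The steps were tested on simulated counts. Alternatives were DESeq2 1.42.0, limma-voom 3.58.1, other scalings, filters and thresholds, replicate numbers as a block, and fits without single libraries. The genes and lists were chosen with earlier results of these data known. Values per library are given for genes past the threshold, the 8 with the smallest p, the 6 highest per kilobase and 8 chosen whatever their values, and by ranges for others; of the wider lists, for up to 3 genes each, of which 1 is not reported here. Mmut was matched as Mut.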

Additional observations from a re-analysis of the deposited data

How the results depend on the processing

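Across 17 alternatives the median log2 fold change of the 36 genes stayed between -0.0095 and 0.079, moving from its value of 0.041 by less than the SD between libraries of a group (0.067), and 17 to 26 of them were positive. The count of 1 called gene among the 36 became 3 with DESeq2 (Acaa2, Ckmt2 and Idh2), 2 at an adjusted p of 0.1 and 0 with the replicate block in edgeR, where 7 had an unadjusted p under 0.05; it was 0 to 1 when 1 library was left out and 0 without replicate 2 of both groups, with 4 at that level in this last setting, chosen after seeing the data. Over all genes the count of 293 became 1019 with DESeq2, 664 at 0.1, 58 with the replicate block (31 higher and 27 lower), 60 to 372 when 1 library was left out, and 0 in edgeR without replicate 2 of both groups (1378 at an unadjusted p under 0.05). Of the wider genes 0 became 3 with DESeq2 and 2 at 0.1. With the replicate block the edgeR adjusted p of Acaa2 was 0.121. Correlations of deviations between same-numbered libraries were -0.286, 0.041 and -0.152. With 3 libraries a group, these cannot settle whether the numbers pair the libraries. The titles also carry an M number, whose meaning is not given. It is the same in both groups for replicates 1 and 3 but differs for replicate 2. Signs turned for genes near 0: with 1 library left out the log2 fold change ranged from -0.033 to 0.118 for Cpt1b, -0.015 to 0.179 for Acadl, -0.175 to 0.124 for Ppara and -0.129 to 0.076 for Ppargc1a, and without replicate 1 of both groups it was -0.042 for Cpt1b and -0.060 for Acadl. No scaling moved the median of all genes by more than 0.1. The cause of these differences was not tested. With 3 libraries a group, small differences of low genes such as Ppara were not detectable.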
